A study of Mus musculus with 18 samples.

Results

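The comparison described here sets cells that carry T-N1G against mock cells, both after 12 h with vehicle. Its members are the 6 libraries, of 18 in the series, whose labels give these conditions. T-N1G cells (3 libraries) are immortalised mouse embryonic fibroblasts of genotype MafF-/-::MafG-/-::MafK-/- to which a tethered Nrf1-MafG heterodimer was added, written T-NG1 in the genotype label. Mock cells (3 libraries) have the same triple deletion without the fusion. The mutant background is thus common to both groups, and the remaining 12 libraries are the same lines under 0.3 or 1.0 µM of the proteasome inhibitor MG132. The sources used here do not give the promoter of the fusion or whether the T-N1G line is 1 clone or a pool. Nor do they say that the libraries of a group are separate cultures, and every p-value below speaks only of the scatter among the 6 libraries, possibly a technical one.

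Nrf1, encoded by Nfe2l1, belongs to the cap'n'collar (CNC) family of bZIP transcription factors, which also holds Nrf2 (Nfe2l2). CNC proteins bind DNA as heterodimers with a small Maf protein, MafF, MafG or MafK, at antioxidant response elements. Nrf1 is made as a membrane protein of the endoplasmic reticulum, is normally removed by the proteasome, and on proteasome inhibition is released by p97 and processed to an active form that raises proteasome subunit genes. Nrf2 is held back by Keap1 and is known for genes of glutathione, NADPH and iron handling, many of which have the same kind of element. In cells without small Mafs a fusion of Nrf1 to MafG supplies both parts of a heterodimer in 1 protein, and the comparison asks which transcripts differ when it is present and no inhibitor was given.

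Each library held 20760402 to 21293712 fragments, and 12316 of 24318 genes passed the expression filter. Levels are CPM, fragments scaled to library size, after TMM scaling, a correction for differences in composition between libraries. A gene was called when its Benjamini-Hochberg adjusted p from edgeR's quasi-likelihood test was under 0.05. SE is the size of the log2 change divided by the square root of that test's F. It is thus not a separate estimate, and may be too small where 1 group has few fragments. In all, 4883 genes (39.6%) were called, 2405 higher (19.5%) and 2478 lower (20.1%) in T-N1G cells. Counts of list members below are to be set against the shares of 19.5% and 20.1%. By 2-fold or more 519 genes (4.21%) differed. Of these, 331 were at least 2-fold higher (2.69% of tested genes) and 188 at least 2-fold lower (1.53%). The median log2 change over all tested genes was -0.001. Most called genes thus differed by less than 2-fold. The median SD of log2 CPM over 10049 better expressed genes was 0.0712 in T-N1G cells and 0.0572 in mock cells. A fit in which all 18 libraries share 1 estimate of spread called 2141 of 13258 genes, and counts that it moves by over 1.5 times stand beside each list.

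The fibroblast label was checked first. All 12 fibroblast markers were expressed, at a summed level of 11838 to 13099 CPM in T-N1G libraries and 11795 to 12878 CPM in mock libraries. Of these, 5 were higher (3 with all 18 libraries), Pdgfra most (log2 1.06, SE 0.0641, adjusted p = 3.12e-07), and Vim was lower (log2 -0.44, SE 0.0579, adjusted p = 7.35e-05), which the fit of all 18 libraries did not call. Of 10 leukocyte markers 1 passed the filter, and Adgre1, Cd3e and Tyrobp had no fragment in any library. Summed fat cell markers were at 57.5 to 63.0 CPM in T-N1G libraries and 37.3 to 43.5 CPM in mock libraries. Adipoq, Plin1 and Cidec of this list were at 0 throughout, and Lpl, the lipoprotein lipase, was higher (log2 1.03, SE 0.0705, adjusted p = 3.62e-07). Summed endothelial markers were at 97.8 to 116.8 CPM in T-N1G libraries and 137.9 to 144.0 CPM in mock libraries. Most of that was Flt1 (log2 -0.39, adjusted p = 9.24e-04), while Tek was higher (log2 1.28, adjusted p = 0.00680) and Cldn5 had 1 fragment in all. Summed epithelial markers were at 98.8 to 101.9 CPM in T-N1G libraries and 213 to 219.5 CPM in mock libraries, most of it Krt19, a keratin (log2 -1.26, SE 0.0407, adjusted p = 3.46e-10), while Epcam had 2 fragments in the 6 libraries together. The largest sum outside fibroblasts was that of neural crest and glial markers. It was at 326 to 380 CPM in T-N1G libraries and 367 to 389 CPM in mock libraries, and of 4 tested 0 were called. Summed muscle markers were at 16.9 to 19.8 CPM in T-N1G libraries and 15.3 to 17.1 CPM in mock libraries, with Des higher (log2 1.32). These 2 sums overlapped between the groups. The fat cell, endothelial and epithelial sums did not overlap between the groups, and their part in the results was not tested. In bulk RNA a smaller number of cells of one type and less RNA per cell cannot be told apart.

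The introduced factors were examined before other genes. Mafg (mm9 chromosome 11, 120489667 to 120494861) had 180.0, 167 and 147 CPM in T-N1G cells, against 0.287, 0.431 and 0.380 CPM in mock cells. Nfe2l1 (mm9 chromosome 11, 96678728 to 96691282) had 1221, 1149.9 and 1060.2 CPM in T-N1G cells, against 298, 290.0 and 284 CPM in mock cells. The groups did not overlap for either gene, so all 6 libraries fit their labels. Mafg was 443-fold higher (log2 8.79, SE 0.141, adjusted p = 4.40e-11) and Nfe2l1 3.93-fold higher (log2 1.98, SE 0.0551, adjusted p = 8.09e-11). The 3 mock libraries together held 23 Mafg fragments, so the SE of Mafg, derived from the test's F, may be too small. Fragments of Nfe2l1 cannot be assigned to the fusion or to the cells' own gene. Maff (log2 -0.24, adjusted p = 0.249) and Mafk (log2 -0.09, adjusted p = 0.786) were not called, and gene totals do not show whether their fragments lie outside the deleted parts.

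Among the other genes of the CNC, small Maf and BACH family, Nfe2l2 was 1.57-fold higher (log2 0.65, SE 0.0635, adjusted p = 7.02e-06). Bach1, a repressor that competes for the same elements, rose 1.41-fold (adjusted p = 3.07e-06) and Keap1 rose 1.34-fold (adjusted p = 1.78e-05). Of 9 tested genes of this list, Nfe2l1 and Mafg included, 5 were higher and 0 lower, where 19.5% of all tested genes were higher and 20.1% lower. Nfe2l3 and Bach2 were not called (log2 0.11 and -0.10), and Bach2 was called lower without T-N1G replicate 2 (log2 -0.19, adjusted p = 0.0343).

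Several enzymes of glutathione handling were higher in T-N1G cells. In glutathione conjugation, 14 of 24 glutathione transferase genes passed the filter, and 8 of these were higher and 1, Gsto1, lower (0 lower with all 18 libraries, 2 without mock replicate 1). Gstm1 had 27.5, 28.6 and 26.8 CPM in T-N1G cells, against 3.74, 4.02 and 3.52 CPM in mock cells. Mgst1, a membrane-bound transferase, had 10.1, 7.36 and 5.44 CPM in T-N1G cells, against 0.144, 0.287 and 0.285 CPM in mock cells. All T-N1G libraries lay above all mock libraries for both genes. Gstm1 was 7.35-fold higher (log2 2.88, SE 0.0873, adjusted p = 1.91e-10) and Mgst1 31.1-fold higher (log2 4.96, SE 0.346, adjusted p = 2.40e-06). Gstm2 (4.85-fold), Gsta4 (4.16-fold) and Gstm4 (3.90-fold) also rose, whereas Gstm5 averaged 14.8 ± 0.446 CPM in T-N1G cells and 14.01 ± 0.515 CPM in mock cells and was not called. Members of the Gstm family are close in sequence, so the split of fragments among them is uncertain. A gene expressed in only 1 of the groups passes the filter through that group, so counts over tested members are descriptions.

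In the list of glutathione synthesis, thioredoxin and peroxide removal, 22 of 25 genes were tested, of which 13 were higher and 2 lower, with a median log2 change of 0.20. Gclm, the modifier subunit of glutamate-cysteine ligase, had 118, 108 and 107 CPM in T-N1G cells, against 50.1, 56.96 and 54.8 CPM in mock cells, a 2.05-fold rise (log2 1.04, SE 0.0571, adjusted p = 5.48e-08). Its catalytic partner Gclc rose less, 1.30-fold (adjusted p = 2.30e-04). Gss, the enzyme of the following step, was lower (log2 -0.42, adjusted p = 2.07e-04), as was Txnrd2, the mitochondrial thioredoxin reductase (log2 -0.26, adjusted p = 0.0478), whose call was lost when any of the 6 libraries was left out, in the fit of all 18 libraries, with DESeq2 and with the replicate number as a block (adjusted p = 0.0540). Sod1, the cytosolic superoxide dismutase, had 289, 296 and 286 CPM in T-N1G cells, against 152, 153 and 153 CPM in mock cells, 1.90-fold higher (log2 0.93, SE 0.0378, adjusted p = 3.11e-09). Prdx1 and Prdx6, peroxiredoxins, rose 1.54-fold and 1.51-fold, and Srxn1, which repairs oxidised peroxiredoxin, rose 1.36-fold. The cystine carrier Slc7a11, often read as an Nrf2 target, was not called: it had 13.6, 9.83 and 8.45 CPM in T-N1G cells, against 10.4, 12.02 and 8.41 CPM in mock cells, and the groups overlapped.

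**Figure D1:**
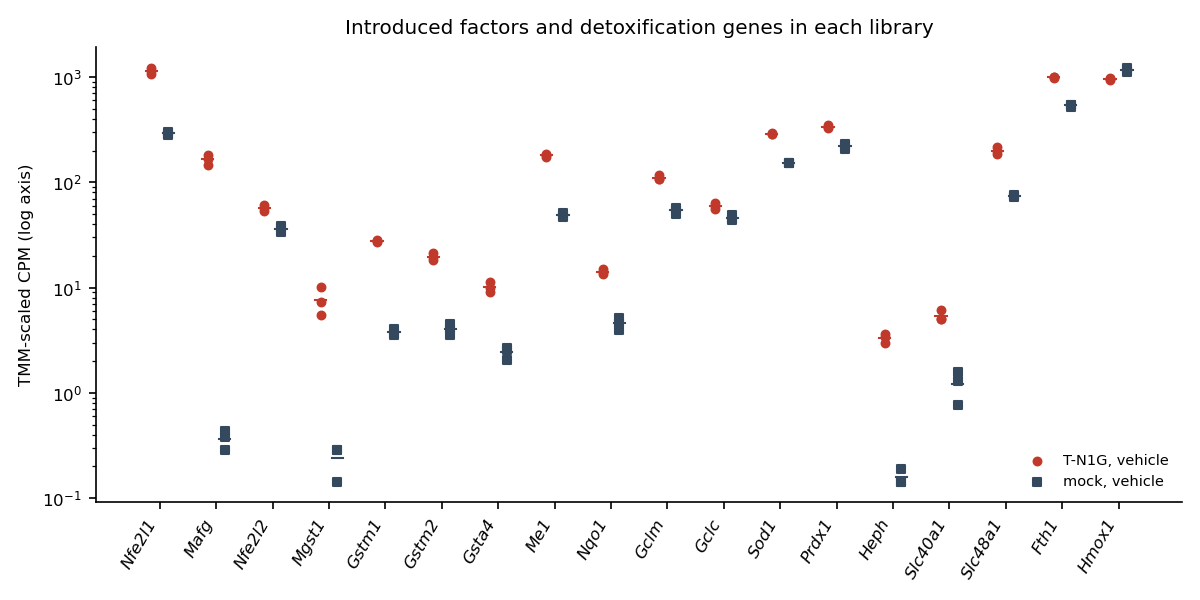
Levels of the introduced factors and of detoxification and iron genes in each library, in TMM-scaled CPM on a log axis, with T-N1G libraries as circles on the left of each gene, mock libraries as squares on its right and short bars at the group means (n = 3 each). For every gene shown except Hmox1, all T-N1G libraries lie above all mock libraries, and Hmox1 lies lower in T-N1G cells.

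Genes that supply NADPH did not move as a group: 4 of 17 tested were higher and 4 lower, 23.5% each. Over all tested genes these shares were 19.5% and 20.1%. The higher count was 2 without mock replicate 1, without mock replicate 3 and in the fit of all 18 libraries, where 2 were lower. One member stood apart. Me1, cytosolic malic enzyme, had 182, 186 and 174 CPM in T-N1G cells, against 50.96, 47.8 and 46.5 CPM in mock cells, a 3.73-fold rise (log2 1.90, SE 0.0478, adjusted p = 4.40e-11). In the pentose phosphate pathway, Tkt rose 1.20-fold (adjusted p = 4.61e-04), while G6pdx, its first enzyme, was not called (log2 0.10, adjusted p = 0.134).

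Quinone, carbonyl and export genes were likewise mixed, with 4 of 22 tested higher (18.2%) and 5 lower (22.7%), near the 19.5% and 20.1% of all tested genes. The lower count fell to 3 without mock replicate 2 or with each chromosome's median change subtracted, and to 2 with all 18 libraries. Nqo1, a quinone reductase and standard Nrf2 target, had 13.6, 13.96 and 14.99 CPM in T-N1G cells, against 5.17, 3.93 and 4.66 CPM in mock cells, 3.09-fold higher (log2 1.63, SE 0.111, adjusted p = 3.72e-07). Cbr2, a carbonyl reductase, was 4.59-fold higher (adjusted p = 3.94e-05). Aldh1a1, a retinaldehyde dehydrogenase, was lower, with 6.15, 5.55 and 4.63 CPM in T-N1G cells, against 17.9, 15.6 and 11.4 CPM in mock cells (log2 -1.45, SE 0.177, adjusted p = 2.12e-04). The drug exporter Abcb1b was also lower (log2 -0.64, adjusted p = 2.02e-06).

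Iron and haem genes held some of the larger rises. Of 27 tested, 8 were higher (29.6%) and 5 lower (18.5%), against 19.5% and 20.1% of all tested genes. The lower count was 2 without mock replicate 2 and 3 with the chromosome medians subtracted. Heph, a copper-dependent ferroxidase that works with iron export, had 3.00, 3.42 and 3.63 CPM in T-N1G cells, against 0.144, 0.144 and 0.190 CPM in mock cells. Slc40a1, the iron exporter ferroportin, had 4.99, 5.08 and 6.11 CPM in T-N1G cells, against 1.58, 0.766 and 1.28 CPM in mock cells. Neither gene overlapped between groups, although both have few fragments, and the changes were 20.3-fold (log2 4.34, SE 0.283, adjusted p = 2.58e-07) and 4.44-fold (log2 2.15, SE 0.215, adjusted p = 8.35e-06). Slc48a1, a haem transporter, was 2.68-fold higher (adjusted p = 3.38e-09). The ferritin chains Fth1 and Ftl1 rose 1.85-fold (adjusted p = 1.31e-08) and 1.24-fold (adjusted p = 2.72e-04), and biliverdin reductase Blvrb rose 1.81-fold (adjusted p = 5.51e-06). Hmox1, haem oxygenase, went against this direction, with 974, 951 and 933 CPM in T-N1G cells, against 1176, 1225 and 1119.8 CPM in mock cells (log2 -0.30, SE 0.0475, adjusted p = 2.99e-04). The transferrin receptor Tfrc was also lower (log2 -0.29, adjusted p = 0.0165), but not without mock replicate 2 or 3 or T-N1G replicate 3. The fit of all 18 libraries called none of the 5 lower members.

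Since many genes of these kinds are known to have the element, promoter sequence was read for the tested genes. The window ran from 250 bases before to 50 after the start. Sequence was from RefSeq (GRCm38.p6), in which 9389 of 12316 tested genes had an entry. A gene counted as a match when any of its promoters matched. The core letters of the element, TGACNNNGC on either strand, were present in 17.1% of tested genes with an entry. The share was 18.5% of higher genes, 16.2% of lower genes and 16.9% of genes not called. Counted by promoter, 12.4% of all 32851 promoters of the table matched, a share unlike those of genes. Shares below are again of genes unless promoters are named. Among genes at least 2-fold higher the share was 16.4%, and among those at least 2-fold lower 19.1%. The narrower form TGACTCAGC, a subset of the core, occurred in 0.454% of promoters and in 51 tested genes (0.543% of those with an entry). Of these, 8 were higher (0.439% of 1823 higher genes) and 9 lower (0.484% of 1860), against 0.596% of genes not called. Of genes changed at least 2-fold, 3 of 214 higher ones (Me1, Pir and Htatip2) and 2 of 131 lower ones (Arap2 and Hrh1) held it. They are shown since they are the called genes of large change that carry the full letters, which stand in capitals on whichever strand they were found. Prdx1, which rose by less than 2-fold, was added for its role after its values were seen. The other called genes of smaller change that hold these letters are not shown.
Me1, chr9:86695910-86695969, minus strand: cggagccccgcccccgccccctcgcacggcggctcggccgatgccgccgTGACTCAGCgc
Pir, chrX:164269192-164269251, plus strand: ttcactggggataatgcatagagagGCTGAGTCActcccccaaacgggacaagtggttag
Htatip2, chr7:49759438-49759497, plus strand: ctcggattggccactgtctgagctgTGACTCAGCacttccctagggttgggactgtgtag
Prdx1, chr4:116685441-116685500, plus strand: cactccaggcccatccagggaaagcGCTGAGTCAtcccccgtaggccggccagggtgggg
Arap2, chr5:62766319-62766378, minus strand: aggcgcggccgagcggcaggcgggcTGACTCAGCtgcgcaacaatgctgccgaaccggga
Hrh1, chr6:114458281-114458340, plus strand: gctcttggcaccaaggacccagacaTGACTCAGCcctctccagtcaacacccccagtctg

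In Me1 the letters begin 6 bases before the start, in Htatip2 49 bases and in Prdx1 133 bases before it. Pir, an iron-binding nuclear protein, had 1.55, 0.902 and 0.812 CPM in T-N1G cells, against 0.0479, 0.240 and 0.380 CPM in mock cells (log2 2.25, SE 0.482, adjusted p = 0.00276). Htatip2 had 10.2, 9.54 and 7.30 CPM in T-N1G cells, against 4.02, 4.36 and 4.18 CPM in mock cells (log2 1.11, SE 0.139, adjusted p = 5.30e-05). Arap2, a GTPase-activating protein, had 1.69, 2.04 and 2.48 CPM in T-N1G cells, against 11.1, 7.57 and 9.41 CPM in mock cells (log2 -2.17, SE 0.179, adjusted p = 2.34e-06), and so carried the same letters and moved the other way. Hrh1, the histamine receptor, was lower as well (log2 -1.31, adjusted p = 7.36e-04). A match describes letters in a window and does not show binding.

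Proteasome subunits were higher by small amounts. The core particle, whose beta subunits cut protein and whose alpha rings gate it, had 9 of 14 genes higher and 0 lower, with a median log2 change of 0.23. The regulatory particle, which binds and unfolds ubiquitinated protein, had 10 of 19 higher and 2 lower, with a median of 0.14. No subunit reached 2-fold. With all 18 libraries in the fit the higher counts were 4 and 5, and 0 were lower.

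All 7 alpha subunits rose, led by Psma5 (1.45-fold, adjusted p = 2.26e-05) and Psma1 (1.42-fold, adjusted p = 2.11e-06). Of the beta subunits only Psmb1 and Psmb4 did. None of the 3 catalytic subunits was called: Psmb5 averaged 96.97 ± 7.20 CPM in T-N1G cells and 92.4 ± 3.32 CPM in mock cells (adjusted p = 0.331), Psmb6 139.6 ± 5.78 CPM in T-N1G cells and 145 ± 3.77 CPM in mock cells and Psmb7 152 ± 9.64 CPM in T-N1G cells and 144 ± 0.835 CPM in mock cells (SD, n = 3 each). In the regulatory particle Psmd7, a subunit of its lid, had 262, 274 and 256 CPM in T-N1G cells, against 156, 159.5 and 151 CPM in mock cells, 1.70-fold higher (log2 0.76, SE 0.0424, adjusted p = 5.66e-08). Psmd1, a scaffold of its base, had 391, 399 and 384 CPM in T-N1G cells, against 253, 265 and 242 CPM in mock cells, 1.54-fold higher (log2 0.63, SE 0.0438, adjusted p = 4.62e-07). Both were higher in every T-N1G library than in any mock library. The ATPases Psmc1 and Psmc2 rose 1.33-fold and 1.37-fold. Psmc5 (log2 -0.17, adjusted p = 0.00717) and Psmd8 (log2 -0.23, adjusted p = 9.32e-04) were lower. Of the 33 subunit genes, 7 lie on chromosomes 4 or 11, and of these Psmd11 rose and Psmc5 fell. When each chromosome's median change was subtracted, 11 core and 11 regulatory subunits were higher and Psmc5 was no longer lower. Psmb6, on chromosome 11, was then called higher (log2 0.16, adjusted p = 0.0112). RefSeq promoters were found for 26 of the 33, 5 with the core letters and 0 with the full form. Of tested genes with an entry, 17.1% had the core letters and 0.543% the full form. Counts this small do not set the subunit genes apart from these shares.

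**Figure D2:**
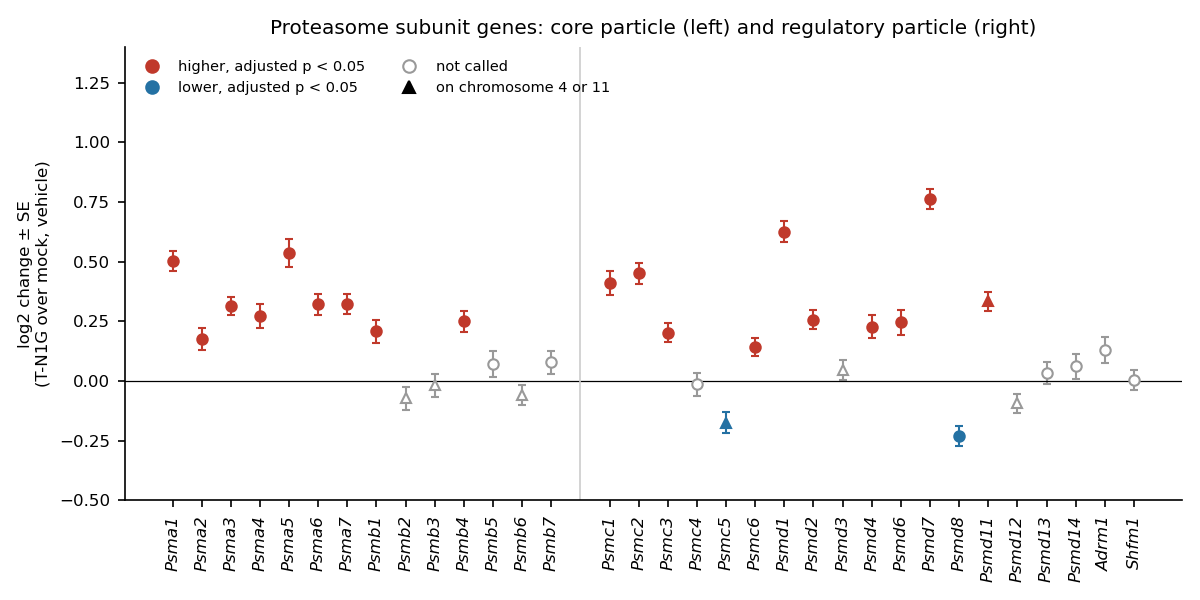
Log2 change of each proteasome subunit gene in T-N1G over mock cells under vehicle (n = 3 libraries each), core particle on the left and regulatory particle on the right. Bars are the SE derived from the test's F. Triangles mark genes on chromosomes 4 or 11 and open symbols genes that were not called. The 7 alpha subunits (Psma1 to Psma7) all lie above 0, and Psmd7 is the highest at 0.76.

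Genes that assemble or attend the proteasome had 5 of 21 tested members higher (23.8%) and 3 lower (14.3%), near the 19.5% and 20.1% of all tested genes. The lower count was 1 with the chromosome medians subtracted, and with all 18 libraries 3 were higher and 1 lower. Psmd5, an assembly chaperone, rose 1.28-fold (adjusted p = 3.19e-05), Pomp, the maturation factor, 1.19-fold (adjusted p = 0.00174), and Ubqln2, a shuttle for ubiquitinated protein, 1.41-fold (adjusted p = 1.12e-04). The activator genes Psme3 (log2 -0.30) and Psme4 (log2 -0.18), both on chromosome 11, were lower, calls that were lost with the chromosome medians subtracted. Of 24 ubiquitin and p97 genes 10 were higher and 3 lower (4 and 1 with all 18 libraries). Zfand5 (1.64-fold, adjusted p = 3.51e-07) and Zfand2a (1.37-fold, adjusted p = 2.96e-05), zinc finger partners of p97 or the proteasome, and the p97 cofactor Nsfl1c (1.44-fold, adjusted p = 1.15e-06) led it. Vcp, p97 itself, rose 1.12-fold (adjusted p = 0.00837, not called without mock replicate 3), as did Ngly1 (1.28-fold), the N-glycanase that acts on Nrf1. Ddi2, the protease that cuts Nrf1, was lower (log2 -0.22, adjusted p = 0.00339), a call lost with the chromosome medians subtracted. In the immunoproteasome and antigen presentation list Tapbp and Tap2 were higher, 2 of 9 tested (22.2%, near the 19.5% of all tested genes). The higher count was 5 with the replicate number as a block and 0 in the fit of all 18 libraries. Only Tapbp was higher without mock replicate 2 or 3, and without T-N1G replicate 1 the members H2-K1, H2-D1 and Nlrc5 were lower. T-N1G replicate 1 stood above the other libraries at several of these genes, with B2m at 620.2, 395 and 364 CPM in T-N1G cells, against 344, 303 and 299.7 CPM in mock cells, and without that library B2m was called higher (log2 0.27, adjusted p = 0.00603).

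In autophagy and the lysosome 9 of 28 genes were higher (32.1%) and 3 lower (10.7%), against 19.5% and 20.1% of all tested genes. In the fit of all 18 libraries 5 were higher. Gabarapl1, which coats autophagosome membranes, had 123, 98.4 and 95.3 CPM in T-N1G cells, against 44.5, 48.8 and 46.99 CPM in mock cells, 2.26-fold higher (log2 1.17, SE 0.0998, adjusted p = 7.22e-05). The receptor Sqstm1 rose 1.23-fold (adjusted p = 0.00573, but 0.0768 with the replicate number as a block), and the lysosomal protease Ctsd 1.27-fold (adjusted p = 1.17e-04). Becn1 and Gabarap, both on chromosome 11, were lower, as was Atg7, whose call was lost when any library other than T-N1G replicate 3 was left out. With the chromosome medians subtracted 12 genes were higher and 0 lower.

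Stress programs moved in different directions. Of 35 integrated stress response genes, the targets of ATF4 in amino acid supply and tRNA charging, 18 were lower and 2 higher, with a median of -0.19, and 11 were lower and 1 higher in the fit of all 18 libraries. Asns, asparagine synthetase, had 154, 135 and 144 CPM in T-N1G cells, against 222, 225 and 201 CPM in mock cells (log2 -0.58, SE 0.0559, adjusted p = 9.76e-06). The glutamine carrier Slc1a5 (log2 -0.48, adjusted p = 2.47e-05), Iars (log2 -0.35, adjusted p = 3.19e-05) and Nars (log2 -0.40, adjusted p = 4.27e-05), both tRNA synthetases, were also lower, as was Atf4 (log2 -0.19, adjusted p = 0.00300). Ddit3, encoding CHOP, was not called (log2 0.17, adjusted p = 0.219). Cebpb and Slc1a4 were the higher members, Cebpb by 1.61-fold (adjusted p = 0.00152).

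Of 22 unfolded protein response genes, by contrast, 11 were higher, and Canx and Sec61b lower, with a median of 0.17, although the fit of all 18 libraries called only 3 higher and 0 lower. The lower count was 0 with the chromosome medians subtracted, 4 without T-N1G replicate 3, and 1 with DESeq2 and without T-N1G replicate 1 or 2 or mock replicate 2 or 3. Pdia6 and Pdia3, protein disulfide isomerases, rose 1.25-fold (adjusted p = 2.75e-04) and 1.22-fold (adjusted p = 3.83e-04), calls that this larger fit did not make, and Crebrf rose 1.46-fold (adjusted p = 5.38e-04). Hspa5, the chaperone BiP, had 1395, 1437 and 1549 CPM in T-N1G cells, against 1380.1, 1048 and 1327 CPM in mock cells, where mock replicate 2 lay below the other libraries, and it was not called (log2 0.22, adjusted p = 0.121) except without mock replicate 1 (log2 0.30, adjusted p = 0.0455).

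Heat shock genes showed 4 higher and 7 lower of 25, against 1 and 2 with all 18 libraries. Hspb8, a small heat shock protein, had 2.90, 3.28 and 2.82 CPM in T-N1G cells, against 0.623, 0.0958 and 0.428 CPM in mock cells (log2 2.95, SE 0.341, adjusted p = 3.32e-05), and Hspb1, another, had 12.4, 11.2 and 11.5 CPM in T-N1G cells, against 20.2, 20.5 and 17.3 CPM in mock cells (log2 -0.73, SE 0.0871, adjusted p = 3.80e-05). Hspa1b was lower (log2 -0.51, adjusted p = 1.11e-04) and its near-identical copy Hspa1a was not called, and how fragments were split between the copies is uncertain. Of 20 p53 targets 6 were lower and 3 higher, which became 12 and 3 with the replicate number as a block. The lower count was 10 without mock replicate 2 and 10 without T-N1G replicate 3, and 0 or 1 targets were higher without mock replicate 2 or 3 or T-N1G replicate 1 or 3, with DESeq2, with the chromosome medians subtracted and with all 18 libraries. Perp led the lower ones (log2 -0.84, SE 0.0913, adjusted p = 6.44e-05), and Cdkn1a had 77.3, 69.9 and 98.3 CPM in T-N1G cells, against 148, 93.1 and 129.8 CPM in mock cells, without overlap of the groups but not called (adjusted p = 0.117), except without mock replicate 2 (adjusted p = 0.0351) and with DESeq2 (adjusted p = 0.0467).

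**Figure D3:**
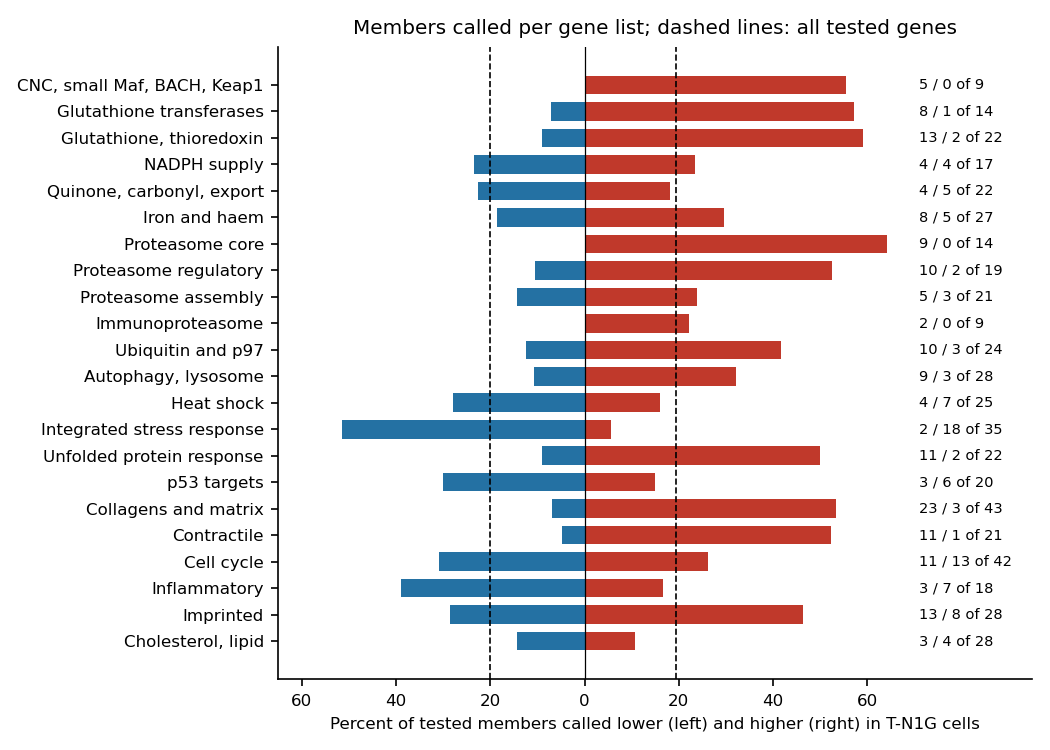
Share of the tested members of each gene list that were called higher (red, right) or lower (blue, left) in T-N1G cells under vehicle, in percent, with the counts of higher and lower genes printed beside each bar. Dashed lines mark the shares over all tested genes, 19.5% higher and 20.1% lower. The core proteasome and the 2 glutathione lists extend furthest to the right and the integrated stress response furthest to the left.

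Matrix genes formed the longest list of rises. Of 43 tested genes for collagens and other extracellular matrix, 23 were higher and 3 lower (5 lower with the replicate number as a block, with DESeq2 and without T-N1G replicate 1), with a median log2 change of 0.24, and 11 were higher in the fit of all 18 libraries. Fmod, a small proteoglycan that binds collagen, had 269, 179.5 and 193 CPM in T-N1G cells, against 34.9, 24.1 and 30.5 CPM in mock cells, 7.17-fold higher (log2 2.84, SE 0.240, adjusted p = 0.00113). Mmp2, a gelatinase, had 57.4, 56.7 and 64.5 CPM in T-N1G cells, against 16.95, 15.3 and 16.4 CPM in mock cells, 3.67-fold higher (log2 1.87, SE 0.0688, adjusted p = 1.34e-09). Ogn, a further small proteoglycan, had 90.9, 99.9 and 128 CPM in T-N1G cells, against 36.9, 34.8 and 41.7 CPM in mock cells (log2 1.49, SE 0.151, adjusted p = 8.76e-04). For all of them the groups were fully apart. Among collagens, Col5a2 rose 1.60-fold (adjusted p = 5.15e-07), Col3a1 1.46-fold (adjusted p = 3.00e-06) and Col4a1 1.47-fold (adjusted p = 1.85e-04), and the cross-linking enzyme Lox 1.48-fold (adjusted p = 3.32e-05). Col1a1, a chain of the main fibrillar collagen, was not called (log2 -0.03, adjusted p = 0.764), but it lies on chromosome 11 and was called higher with the chromosome medians subtracted (log2 0.19, adjusted p = 0.0293). Col18a1 (log2 -0.96), Vcan (log2 -0.85) and Col8a1 (log2 -0.51) were lower.

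In the contractile list 11 of 21 tested genes were higher and 1 lower, with 6 higher without mock replicate 2, 7 without mock replicate 3 and 7 in the fit of all 18 libraries. None was lower in that fit or without mock replicate 1 or 2. Acta2, smooth muscle actin, had 1401, 1254 and 967 CPM in T-N1G cells, against 809, 700.5 and 677 CPM in mock cells (log2 0.73, SE 0.157, adjusted p = 0.0172), a call lost without mock replicate 2 or T-N1G replicate 2. Myl9, a myosin light chain, had 63.98, 54.1 and 30.8 CPM in T-N1G cells, against 17.7, 12.3 and 10.8 CPM in mock cells (log2 1.87, SE 0.378, adjusted p = 0.0195), and its call was lost without mock replicate 2 or 3 or T-N1G replicate 2. T-N1G replicate 3 was the lowest of its group for both, and also for Tagln and Ctgf, which were called higher only without it (log2 0.68, adjusted p = 3.40e-04, and log2 1.14, adjusted p = 0.00602), Ctgf also with DESeq2 (adjusted p = 0.0269). Tpm1, a tropomyosin, was called with a smaller change (1.35-fold, adjusted p = 3.19e-05). Ttn, the giant sarcomere protein, had 19.5, 14.95 and 19.2 CPM in T-N1G cells, against 1.39, 1.15 and 1.09 CPM in mock cells, 14.7-fold higher (log2 3.88, SE 0.157, adjusted p = 3.11e-09), while the muscle regulators Myog, Myod1 and Myf5 had 2 fragments or fewer in any library.

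Cell cycle genes were split, with 11 of 42 higher (26.2%) and 13 lower (31.0%), against 19.5% and 20.1% of all tested genes. In the fit of all 18 libraries 3 were higher and 7 lower. The D-type cyclins, which start passage through G1 with Cdk4 and Cdk6, changed most. Ccnd1 had 102, 121 and 119 CPM in T-N1G cells, against 371, 371 and 374 CPM in mock cells (log2 -1.71, SE 0.0585, adjusted p = 1.98e-09). Ccnd2 had 131, 181 and 200.2 CPM in T-N1G cells, against 479, 519 and 490.5 CPM in mock cells (log2 -1.54, SE 0.171, adjusted p = 0.00216), while Ccnd3 averaged 78.9 ± 3.46 CPM in T-N1G cells and 78.9 ± 2.54 CPM in mock cells (SD, n = 3 each) and was not called (adjusted p = 0.989). For Ccnd1 and Ccnd2 every T-N1G library lay far below every mock library. Cdk6 was lower (log2 -0.68, adjusted p = 1.45e-05), Cdk4 higher (log2 0.35, adjusted p = 8.63e-05), and the inhibitor Cdkn1b higher (log2 0.39, adjusted p = 1.69e-04). Replication genes Mcm5, Mcm6, Mcm7 and Pcna rose by log2 0.17 to 0.26. Mki67 was not called (log2 0.17, adjusted p = 0.157), except with the replicate number as a block (adjusted p = 1.41e-04), without T-N1G replicate 2 (adjusted p = 0.0106) and with DESeq2 (adjusted p = 0.0468). Of the 13 lower genes 5 lie on chromosomes 4 or 11, among them Aurkb, Birc5 and Cdc20, and with the chromosome medians subtracted 8 were lower.

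Among 18 tested inflammatory genes 7 were lower (38.9%) and 3 higher (16.7%), against 20.1% and 19.5% of all tested genes. With all 18 libraries 3 were lower. Ccl2, a monocyte attractant, had 17.9, 18.6 and 14.5 CPM in T-N1G cells, against 33.9, 32.1 and 34.4 CPM in mock cells (log2 -0.98, SE 0.0838, adjusted p = 2.43e-06), and Ccl7 (log2 -0.74), Ccl5 (log2 -0.80) and Lif (log2 -0.51) were lower too. All 4 are on chromosome 11, and with the chromosome medians subtracted 9 genes of the list were lower. Cxcl12, a chemokine made by stromal cells, went the other way, with 2062, 1861 and 1876 CPM in T-N1G cells, against 992, 977 and 974 CPM in mock cells, 1.97-fold higher (log2 0.98, SE 0.0509, adjusted p = 3.10e-08). In cholesterol and lipid synthesis 21 of 28 tested genes were not called, with 10.7% higher and 14.3% lower, both under the shares of all tested genes. Fasn, Acaca, Acly and Srebf1, the 4 lower genes, are all on chromosome 11, and 1 gene of the list was lower with the chromosome medians subtracted and 1 with all 18 libraries. The list had 3 higher genes, 5 without T-N1G replicate 1, and 9 lower without T-N1G replicate 3, and with the replicate number as a block 6 were higher and 6 lower.

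Imprinted genes, of which only the maternal or the paternal copy is normally expressed, showed changes in both directions: 13 of 28 tested were higher and 8 lower. The fit of all 18 libraries called 7 higher, and 5 were lower there and without each mock library in turn. Zdbf2, on chromosome 1, had no fragment in the T-N1G libraries, against 7.66, 8.10 and 8.65 CPM in mock cells. With 511 fragments over the mock libraries and a floor of 3 fragments over the T-N1G group, it was at least 170.5-fold lower (adjusted p = 1.92e-08). Mest had 63.4, 62.5 and 80.8 CPM in T-N1G cells, against 8.09, 9.01 and 8.65 CPM in mock cells, 8.02-fold higher (log2 3.00, SE 0.116, adjusted p = 1.95e-07). No other imprinted gene differed as much, but neighbours in a cluster moved together in several places. The noncoding RNAs Meg3 and Rian, transcribed from the same cluster on chromosome 12, were both lower, Meg3 at 7.84, 4.37 and 5.01 CPM in T-N1G cells, against 19.3, 20.02 and 18.01 CPM in mock cells (log2 -1.73, SE 0.174, adjusted p = 8.99e-05) and Rian at log2 -1.53 (adjusted p = 1.73e-04). Peg10 and Sgce, neighbours on chromosome 6, rose 1.52-fold and 1.65-fold. H19 and Igf2, neighbours on chromosome 7, rose 1.92-fold (adjusted p = 9.00e-05) and 1.37-fold (adjusted p = 4.25e-05). The fit of all 18 libraries did not call Peg10, H19 or Igf2. Ndn was lower (log2 -1.24, adjusted p = 2.16e-05). Plagl1, a zinc finger factor, had 79.2, 89.7 and 123 CPM in T-N1G cells, against 45.6, 36.4 and 47.5 CPM in mock cells (log2 1.17, SE 0.215, adjusted p = 0.0132).

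Among called genes that averaged at least 5 CPM in the higher group, without overlap of the libraries, the largest changes lay mostly outside these lists. Spock3, a secreted proteoglycan, had 8.76, 8.02 and 7.30 CPM in T-N1G cells, against 0.192, 0.0479 and 0.0950 CPM in mock cells (log2 6.10, SE 0.268, adjusted p = 6.29e-09). Scara5, a ferritin receptor, was 13.4-fold higher (adjusted p = 2.04e-04). Igfbp5, which binds insulin-like growth factors, had 727, 516 and 618 CPM in T-N1G cells, against 39.8, 27.4 and 81.7 CPM in mock cells, 12.5-fold higher (log2 3.64, SE 0.471, adjusted p = 0.00529). Trp63 (6.55-fold), Sfrp1, a secreted Wnt antagonist (5.98-fold), and S100a16 (5.85-fold) completed the 12 largest increases with Mafg, Mgst1, Ttn, Mest, Gstm1 and Fmod. Sfrp1 varied widely within the T-N1G group, at 78.7, 44.9 and 38.6 CPM in T-N1G cells.

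The 12 largest decreases, chosen by the same rule, were led by Zdbf2. Upk1b, a uroplakin, had 0.145, 0.142 and 0.191 CPM in T-N1G cells, against 8.91, 8.58 and 8.08 CPM in mock cells (log2 -5.69, SE 0.214, adjusted p = 1.68e-09). Ppl, a plaque protein of the desmosome and keratin network, had 1.55, 1.85 and 1.91 CPM in T-N1G cells, against 11.4, 12.4 and 11.97 CPM in mock cells (log2 -2.75, SE 0.126, adjusted p = 9.70e-09), and Ripk4, a kinase of epidermal differentiation, was lower too (log2 -2.81, adjusted p = 5.24e-07). Of the 3 epithelial markers tested, Krt19 was lower and Cdh1, the epithelial cadherin, higher on few fragments, with 1.31, 1.33 and 1.96 CPM in T-N1G cells, against 0.575, 0.623 and 0.570 CPM in mock cells (log2 1.37, SE 0.277, adjusted p = 0.00176). Adcyap1r1, the PACAP receptor, had 0.629, 0.332 and 1.15 CPM in T-N1G cells, against 14.6, 20.8 and 22.6 CPM in mock cells (log2 -4.77, SE 0.327, adjusted p = 4.70e-05), and Gpm6a (log2 -3.89) and Cck (log2 -2.57) were also lower. The mast cell receptor chain Ms4a2 (log2 -3.62), Hook1 (log2 -2.77), Ano3 (log2 -2.46), Tmem246 (log2 -2.46) and Cdhr1 (log2 -2.39) were the remaining ones.

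**Figure D4:**
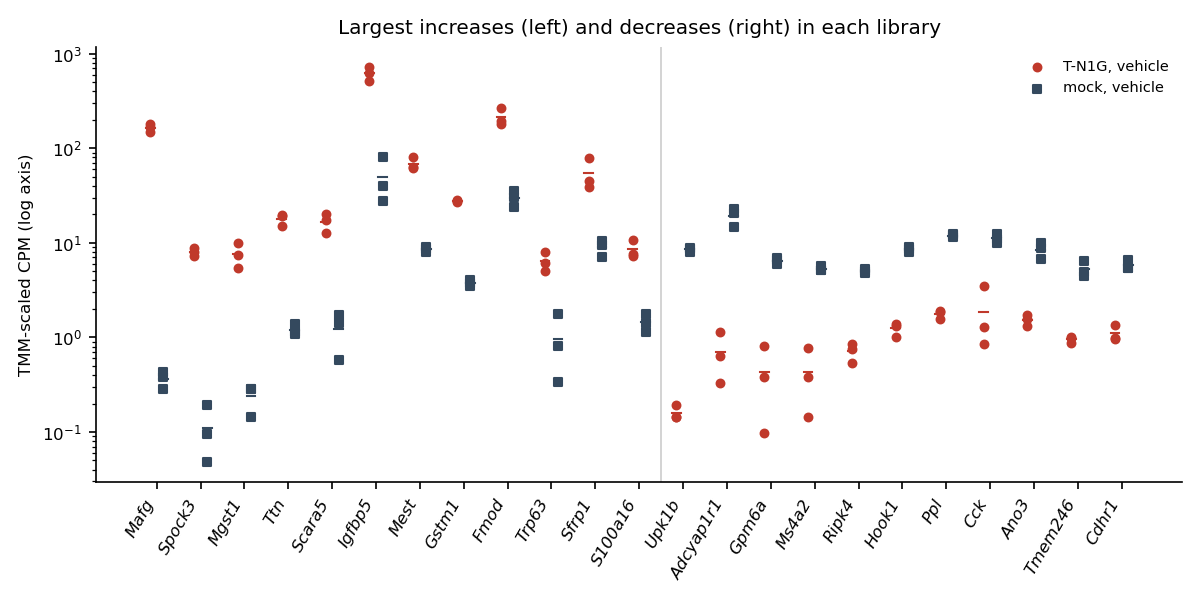
Levels of the genes with the largest called increases (left of the grey line) and decreases (right of it) in each library, in TMM-scaled CPM on a log axis, with T-N1G libraries as circles left of the mock libraries as squares and bars at the group means (n = 3 each). Zdbf2 is not drawn, since it is at 0 in T-N1G cells. No gene shown overlaps between the groups, since this was a condition of the choice.

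Changes were not spread evenly over the genome. On chromosome 11, 552 of 1029 tested genes were lower and 58 higher, with a median log2 change of -0.22. The median was below 0 in all 13 windows of 10 Mb, from -0.27 to -0.14, so the shift ran along the whole chromosome. In the 3 T-N1G libraries the chromosome median, relative to the mock mean, was -0.24, -0.22 and -0.20, and fragments of chromosome 11 other than Nfe2l1 and Mafg made up 8.96%, 9.05% and 9.14% of the library, against 10.4%, 10.5% and 10.4% in mock libraries. On chromosome 4, 382 of 781 genes were lower and 87 higher, with a median of -0.19. Within it 1 stretch differed: from 60 to 90 Mb the median of 56 tested genes was 0.37, with 38 higher and 3 lower, whereas it was -0.19 from 0 to 60 Mb and -0.21 from 90 to 160 Mb. These limits were drawn after the windows were seen, on mm9 positions.

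Medians of the other 18 chromosomes lay between -0.11 and 0.09. Parts of chromosomes 18 and 6 differed in a similar way, at -0.16 from 30 to 100 Mb of chromosome 18 and -0.14 from 80 to 150 Mb of chromosome 6. In the other direction, the median was 0.31 over 88 genes from 120 to 130 Mb of chromosome 10, and the 4 windows from 110 to 150 Mb of chromosome 2 had medians of 0.105 to 0.167. Chromosomes 4 and 11 held 14.7% of tested genes, 934 of the 2478 lower genes (37.7%) and 145 of the 2405 higher genes (6.03%). Separate libraries of the same lines under MG132 had chromosome 11 medians of -0.24 at 0.3 µM and -0.23 at 1.0 µM, and the chromosome 4 stretch was at 0.30 and 0.50. Several of the lower genes named above lie on these chromosomes, and the part of the shift in any single gene was not tested. With each chromosome's median subtracted 4126 genes were called, 3563 of them also called, in the same direction, without that step. The step takes 1 median per whole chromosome from these same data, although the shift differed within chromosomes 4, 18 and 6. From 60 to 90 Mb of chromosome 4 it moved the higher count from 38 to 44 and the lower count from 3 to 2. From 0 to 30 Mb of chromosome 18 the higher count went from 25 to 36 and the lower count from 9 to 1.

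**Figure D5:**
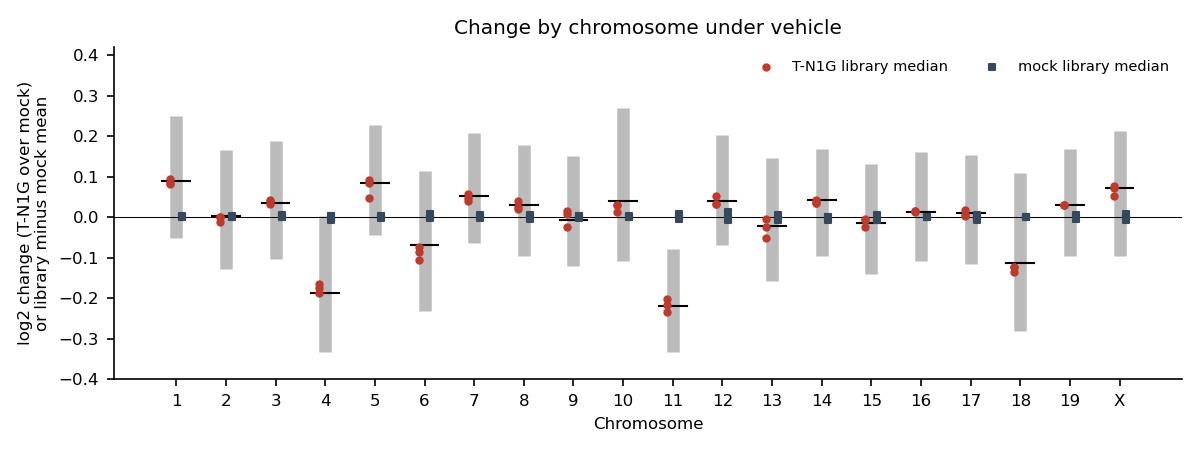
Log2 change in T-N1G over mock cells under vehicle by chromosome, as the median (black line) and the middle 50% of tested genes (grey bar), with each library's own median relative to the mock mean as red circles (T-N1G) and dark squares (mock). Chromosomes 11 and 4 lie lowest, at -0.22 and -0.19, in all 3 T-N1G libraries.

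The same lines under MG132, in libraries that share none with the vehicle groups, give values beside those above. For the shares that follow, only the sign of the log2 value between the lines was compared, whether or not the gene was called with inhibitor. The share of all tested genes with each sign was not taken, so these percentages have no baseline. Of all genes called higher under vehicle, 71.3% also had a positive value at 0.3 µM and 61.1% at 1.0 µM. Of those called lower, 77.1% and 71.6% also had a negative value. Of genes at least 2-fold higher under vehicle, 268 of 330 with a value (81.2%) had a positive one at 0.3 µM and 254 (77.0%) at 1.0 µM. Of those at least 2-fold lower, 181 of 188 (96.3%) and 166 (88.3%) had a negative one. The vehicle difference in Gclm (log2 1.04) stood beside 2.38 at 0.3 µM and 2.58 at 1.0 µM. That in Nqo1 (log2 1.63) stood beside 3.41 at 0.3 µM and 3.60 at 1.0 µM, and in Psmd7 (log2 0.76) beside 1.57 at 0.3 µM and 2.14 at 1.0 µM. These 3 genes had larger log2 values between the lines with inhibitor than without. Ccnd1 (log2 -1.71) stood beside -2.54 at 0.3 µM and -2.95 at 1.0 µM, and Mest (log2 3.00) beside 3.29 at 0.3 µM and 3.27 at 1.0 µM. Mmp2 (log2 1.87) differed less with inhibitor, 0.79 at 0.3 µM and 0.21 at 1.0 µM, and Cxcl12 (log2 0.98) had the opposite sign, -0.16 at 0.3 µM and -1.30 at 1.0 µM. These differences between treatments were not tested here.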

How the data were processed

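Polyadenylated RNA was sequenced with a strand-specific kit, per the labels' protocols. The submitters' processing notes name bcl2fastq 2.16.0.10, the aligner TopHat2 2.0.8b, Cuffdiff 2.1.1 and the build mm9. The annotation, filters and strand setting of counting are not stated, so overlapping and antisense genes are uncertain. Per the file headers, the authors deposited unscaled estimated counts of fragments by library, and an FPKM value per library and per group. FPKM was not used for tests, and the group table gave gene positions. Of the estimated counts, 98.3% to 98.4% were whole within 1e-06, and all were rounded. No gene was marked HIDATA (too deep for Cuffdiff to process) in these 6 libraries. FPKM estimates of 11 genes failed, Nfe2l1 among them, and their counts were kept. Cuffdiff's condition names were read as line and treatment, and its replicate order as the number in the titles, links that the files do not state.

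The 6 libraries entered 1 edgeR 4.0.16 fit (R 4.3.3, robust quasi-likelihood, TMM, default filter) of T-N1G against mock without covariates. Every adjusted p is from that test over 12316 genes unless another tool is named. The test was tested on simulated data and recovered the changes put in. The simulation gave all genes the same spread and used changes larger than many reported here, so it does not cover small changes. Reads carry no molecular identifiers, so the floor of 3 fragments covers counting error only. Chi-square per degree of freedom between libraries of a group was 3.29 to 10.5, so none was a duplicate. Same-numbered libraries deviated together (correlations 0.190 to 0.303, over 0.1 in all 3 pairs, and -0.201 to -0.061 in other pairs). Deviations from the mean of 3 libraries sum to 0, so the negative values are not separate evidence of pairing. The numbers were taken to pair them only in the alternative with the replicate number as a block. The main test leaves this pairing out, so its adjusted p-values are those of an unpaired comparison. Alternatives were the replicate block, library size without TMM, no filter, DESeq2 1.42.0, a fit of all 18 libraries, an adjusted p under 0.01, each library left out, and each chromosome's median subtracted. The last takes 1 median for a whole chromosome from these same data, so parts of a chromosome that differ from it are shifted too far.

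Members, the 22 gene lists (565 of 570 entries were in the tables), the 7 marker lists and the tests were chosen with earlier results of these data known. Named genes were Nfe2l1, Mafg, Maff, Mafk, the 12 largest called rises and falls of at least 2-fold without overlap of the libraries and with a mean of at least 5 CPM in the higher group, and from each list the called members of at least 2-fold or the 3 of lowest adjusted p. Further list members were named for their role after their values were seen. Some genes that this rule names are not reported here. Promoters came from RefSeq (GRCm38.p6), another build than the files, and were matched by symbol.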

Additional observations from a re-analysis of the deposited data

How the results depend on the processing

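Under library size without TMM, no filter and DESeq2, the counts of higher and lower genes stayed within 1.5 times. Leaving out each library in turn gave 1891 to 2335 higher and 1934 to 2346 lower genes, 307 to 362 and 176 to 214 of them by 2-fold or more. With the replicate number as a block 5673 genes were called, 4858 of them the same genes in the same direction, and no call changed among the 103 genes that the naming rule picks. Of the genes named beyond the rule, Txnrd2 and Sqstm1 lost their call under it and Mki67 gained one. The fit of all 18 libraries called 1118 higher and 1023 lower, sharing 2083 calls. Called genes named in the text that it did not call were Txnrd2, Gsto1, Ftl1, Tfrc, Hmox1, Psmb1, Psmb4, Psmc5, Psmd8, Pomp, Psme4, Tap2, Tapbp, Vcp, Ngly1, Ddi2, Atg7, Hspa1b, Atf4, Slc1a4, Pdia3, Pdia6, Canx, Sec61b, Vim, Lox, Birc5, Mcm5, Mcm6, Mcm7, Pcna, Ccl5, Igf2, H19, Peg10, Srebf1, Acaca and Acly. In it 4 core and 5 regulatory proteasome, 4 ubiquitin and p97, 5 autophagy, 3 unfolded protein, 11 matrix, 7 contractile and 7 imprinted genes were higher, and 11 integrated stress and 7 cell cycle genes were lower. At an adjusted p under 0.01 1579 genes were higher, 1607 lower and 5 contractile genes higher. With the chromosome medians subtracted 8 cell cycle genes were lower, and Psmc5, Psme3, Psme4, Ddi2, Gabarap, Becn1, Atg7, Canx, Sec61b, Cdc20, Birc5, Mcm7, Srebf1, Acaca and Acly were not called. The contractile count ran from 6 to 16 without 1 library. Mafk, not called in any fit, ran from log2 -0.21 to 0.15 without 1 library, above 0 without mock replicate 1. Chromosome 4 and 11 medians moved by less than the spread between libraries in the alternatives where they were taken. They were not taken without the filter or with the chromosome medians subtracted, a step that removes them by design. With the narrower promoter letters in place of the core, 0.439% of higher genes matched, against 0.543% of tested genes. The cause of these differences was not tested. Depth limits genes under a few CPM, such as Heph, Mgst1 in mock cells and Pir.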
